A study of Mus musculus with 6 samples.

Results

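The genes described here are 10 genes of the microtubule cytoskeleton, listed by symbol: the alpha tubulins Tuba1a, Tuba1b, Tuba1c and Tuba4a, the beta tubulins Tubb2a, Tubb4b, Tubb5 and Tubb6, the gamma tubulin Tubg1, and the tubulin-binding protein stathmin, Stmn1. All 10 were present among the 11922 genes of the count table, and all 10 had enough counts to be tested. The list holds genes by name but was chosen with earlier results of these data known. It leaves out other tubulin genes, some of which fell, that are described further on.

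RNA was sequenced from mouse CD8+ T cells kept in culture for 7 days, either with water (vehicle) or with 0.25 mM AOA (aminooxyacetic acid), an inhibitor of enzymes that use pyridoxal phosphate, the active form of vitamin B6. The cells came from the spleens of C57BL/6J mice, selected with magnetic beads against CD8α, and were activated with beads carrying anti-CD3 and anti-CD28 for 72 hours, then washed and expanded for 4 days. Recombinant human IL-2 at 100 units/ml was present throughout in both groups, so the vehicle cells were activated as well. Each group had 3 libraries, and every mouse contributed 1 vehicle and 1 AOA culture. Total counts per library lay between 12881962 and 18934869 with vehicle and between 18696114 and 21997078 with AOA. P-values measure the spread between these 3 cultures per group.

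Microtubules are hollow polymers of alpha and beta tubulin dimers. Each family is encoded by several genes, called isotypes, whose proteins differ mostly in the acidic tail at the C-terminus. Gamma tubulin sits in the ring complex that starts new microtubules, and stathmin holds free dimers and promotes disassembly until it is phosphorylated in mitosis. In a T cell, microtubules form the spindle at division and, outside division, carry the centrosome and cytotoxic granules to the contact with a target cell. Tubulin mRNA is also under feedback: when free dimers are plentiful, tubulin mRNA being translated is degraded.

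The isotypes are close copies of each other, which matters for reads counted only where they map to 1 place. The last 45 coding bases of the following genes are shown because they encode the tail, and these 4 genes differ there. They are written 5′ to 3′ from the longest open reading frame of GENCODE vM21 transcripts of build GRCm38, and the stop codon is in capitals.
Tuba1c: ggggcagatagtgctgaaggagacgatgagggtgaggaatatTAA
Tuba4a: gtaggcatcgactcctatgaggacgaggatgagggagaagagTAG
Tubb4b: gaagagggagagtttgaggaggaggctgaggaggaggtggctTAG
Tubb5: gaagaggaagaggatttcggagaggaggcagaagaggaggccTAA
The ends of Tuba1c and Tuba4a were identical at 20 of 45 bases, and those of Tubb4b and Tubb5 at 29 of 45. Tuba4a is the alpha tubulin gene whose coding sequence lacks the final tyrosine codon, so its protein starts out in the detyrosinated form. Over the whole coding sequence Tuba1a and Tuba1b were 98.3% identical, Tuba1b and Tuba1c 97.9%, and Tuba1a and Tuba1c 97.1%. Tuba4a was 84.7% to 85.3% identical to these 3 alpha genes, and the 4 beta genes were 80.3% to 84.6% identical to each other.

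Stretches shared with other genes covered much of some transcripts. Of all 75-base windows, the length of 1 sequencing read, 78.3% of those in Tuba1b also occurred in a transcript of another gene, as did 70.4% of those in Tuba1a and 56.7% of those in Tuba1c, mostly in each other. The share was 43.2% for Tubb2a, whose main partner was Tubb2b, 40.9% for Tubb4b, which has processed pseudogenes, 20.8% for Stmn1, whose partner was the gene model Gm11223, and 7.64% for Tubg1, whose partner was Tubg2. No window of Tubb5 or Tubb6 was shared. For Tuba4a the share was 36.3%, all of it with Stk16, a kinase gene on the opposite strand (chr1:75210838-75215606) that overlaps the GENCODE model of Tuba4a (chr1:75214228-75219865). The sources used here do not say whether counting used strand. Separate levels of Tuba1a, Tuba1b, Tuba1c, Tuba4a, Tubb2a and Tubb4b are therefore uncertain, and read pairs, of which 1 mate may fall in a stretch that is not shared, were not modelled.

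With AOA, 9 of the 10 genes rose and 1, Tubb6, fell, in edgeR's quasi-likelihood test at an adjusted p under 0.05. Over all 11759 genes tested the same rule called 53% changed, 26.2% higher and 26.8% lower, so a changed gene was common in this comparison. In none of the 10 genes did the 3 AOA libraries overlap the 3 vehicle libraries, while 62.1% of all tested genes had groups that did not overlap. The median log2 fold change was 1.15 over the 10 genes and -0.02 over all tested genes, of which the middle 90% lay between -1.99 and 1.67. Stmn1, Tuba1b, Tubb4b and Tuba1c lay above that range and Tubb6 below it. Values below are CPM, that is counts scaled to equal library size after TMM normalisation, in the order of mice 1, 2 and 3, and every fold change is AOA against vehicle.

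Tuba1b, an alpha tubulin made in most dividing cells, is encoded at chr15:98931429-98934390. Its level was 30.1, 36.5 and 39.6 CPM with vehicle and 246, 227 and 256 CPM with AOA. The AOA libraries were close to each other and all lay far above the vehicle libraries. This was a rise of 6.85-fold, a log2 fold change of 2.78 ± 0.15 (SE, n = 3 per group, edgeR adjusted p = 1.12e-05), the largest among the 9 tubulins of the 10 genes.

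Tuba1c (chr15:99029891-99038105), which lies beside Tuba1a and Tuba1b in 1 cluster of alpha genes, had 25.6, 41.0 and 34.5 CPM with vehicle and 161, 129 and 136 CPM with AOA. The lowest AOA library was above the highest vehicle library, and mouse 1 gave both the lowest vehicle value and the highest AOA value. The log2 fold change was 2.08 ± 0.19 (SE, edgeR adjusted p = 4.66e-05), or 4.22-fold.

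Tuba1a (chr15:98949847-98953501), the alpha tubulin best known from developing neurons, had 43.8, 48.5 and 52.1 CPM with vehicle and 116, 94.7 and 88.5 CPM with AOA. All AOA libraries were higher, and the rise within a mouse ranged from 0.76 to 1.41 on the log2 scale. The fitted log2 fold change was 1.05 ± 0.15 (SE, edgeR adjusted p = 4.33e-04).

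Tuba4a (chr1:75214972-75221261) had 103, 124 and 102 CPM with vehicle and 225, 234 and 240 CPM with AOA. Its 3 AOA libraries agreed closely, and it rose by a log2 fold change of 1.09 ± 0.13 (SE, edgeR adjusted p = 2.28e-04), or 2.13-fold. Per length, in CPM per kilobase, Tuba4a had the highest mean level of the 4 alpha genes with vehicle, at 47.0 ± 5.34 (SD), while with AOA its 99.9 ± 3.27 (SD) was below the 155 ± 9.39 (SD) of Tuba1b. That first place turned over when counts were divided by the windows not shared with another gene, where Tuba4a made up 17.1% of alpha tubulin with vehicle, Tuba1a 33.7% and Tuba1b 34.8%.

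**Figure D1:**
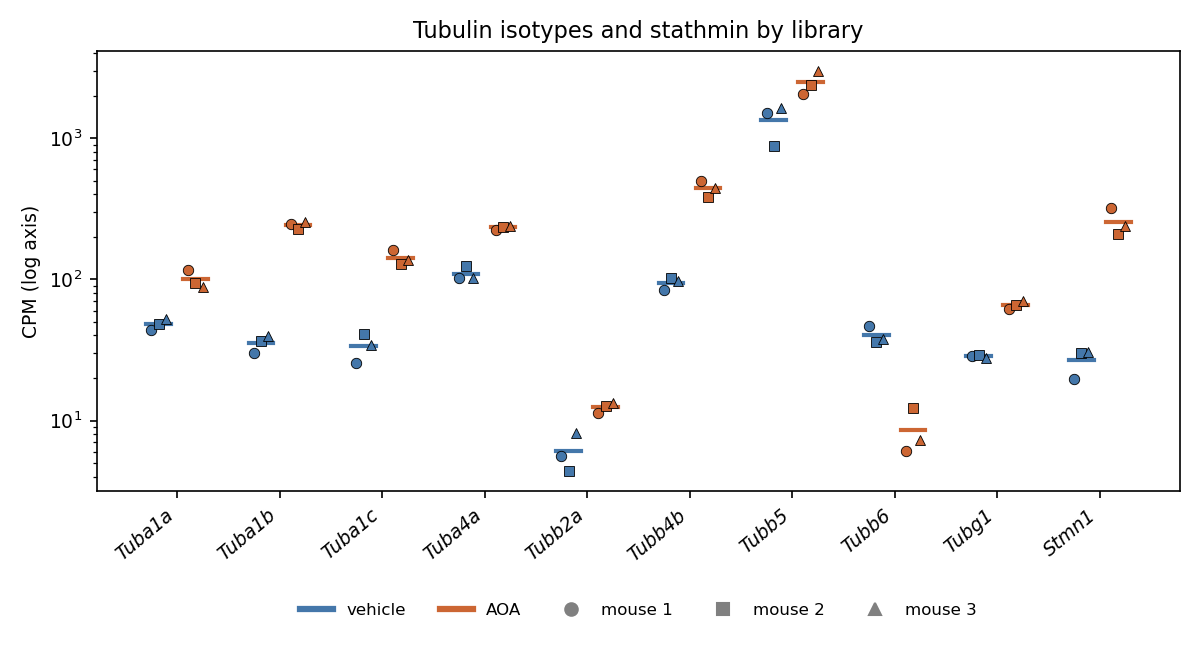
CPM of each gene (log axis) in each library, with vehicle in blue and AOA in orange, 1 marker shape per mouse and a bar at the mean of the 3 libraries. The 2 groups do not overlap for any gene, Tubb6 alone is lower with AOA, and the vehicle library of mouse 2 is the lowest for Tubb5 at 875 CPM.

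Tubb5 (chr17:35833920-35838301), the main beta tubulin of lymphoid and other dividing cells, had the highest mean level per length of the 10 genes in both groups and took 0.0905% to 0.159% of all counts with vehicle and 0.203% to 0.304% with AOA. Its level was 1497, 875 and 1637 CPM with vehicle and 2053, 2375 and 2994 CPM with AOA. The groups did not overlap, but the vehicle library of mouse 2 was well below the other two. The log2 fold change of 0.89 ± 0.26 (SE, edgeR adjusted p = 0.0169) was the smallest of the 10 in absolute size. Without the AOA library of mouse 3 it was 0.73 and no longer passed the test (adjusted p = 0.0666). Without the vehicle library of mouse 2 it was 0.69 (adjusted p = 0.0193).

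Tubb4b (chr2:25222158-25224702), a broadly made beta tubulin that also builds cilia, had 83.6, 102 and 97.6 CPM with vehicle and 498, 385 and 443 CPM with AOA. The lowest AOA library was more than 3 times the highest vehicle library. The log2 fold change was 2.23 ± 0.16 (SE, edgeR adjusted p = 1.79e-05), or 4.68-fold.

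Tubb2a (chr13:34074278-34078008), a beta tubulin abundant in brain, had the lowest mean level per length of the 10 genes with vehicle. It had 5.63, 4.37 and 8.14 CPM there, from 69 to 150 counts per library. With AOA it had 11.4, 12.6 and 13.4 CPM. Its groups were separate, with the vehicle library of mouse 3 nearest to the AOA libraries, and the log2 fold change was 1.03 ± 0.25 (SE, edgeR adjusted p = 0.00691).

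Tubb6, the class V beta tubulin and the most divergent beta isotype of the list, moved the other way. It had 46.7, 36.0 and 37.6 CPM with vehicle and 6.11, 12.3 and 7.31 CPM with AOA. Every AOA library was below every vehicle library, and mouse 2 had the smallest difference. It fell 4.68-fold, with a log2 fold change of -2.23 ± 0.26 (SE, edgeR adjusted p = 1.68e-04), and ranked 472 from the lowest of 11759 tested genes. Since none of its windows is shared with another gene, its reads are not divided with a close copy.

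Tubg1 (chr11:101119904-101126423), the gamma tubulin of most cells, was the steadiest of the 10 genes among the vehicle libraries, at 28.6, 29.0 and 27.8 CPM. With AOA it had 62.1, 65.3 and 70.8 CPM, all above the vehicle range. The log2 fold change was 1.21 ± 0.12 (SE, edgeR adjusted p = 8.98e-05).

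Stmn1 (chr4:134468320-134473843) had the largest rise of the 10 genes. Its level was 19.6, 30.3 and 30.5 CPM with vehicle and 320, 210 and 239 CPM with AOA. All AOA libraries were far above the vehicle libraries, and mouse 1 had both the lowest vehicle and the highest AOA value. The rise was 9.54-fold, a log2 fold change of 3.25 ± 0.23 (SE, edgeR adjusted p = 1.65e-05), which ranked 65 of 11759 tested genes. Without the AOA library of mouse 1 it was 3.06, and with each library's trend of level on gene length removed, an alternative chosen after the data were seen, 3.05.

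**Figure D2:**
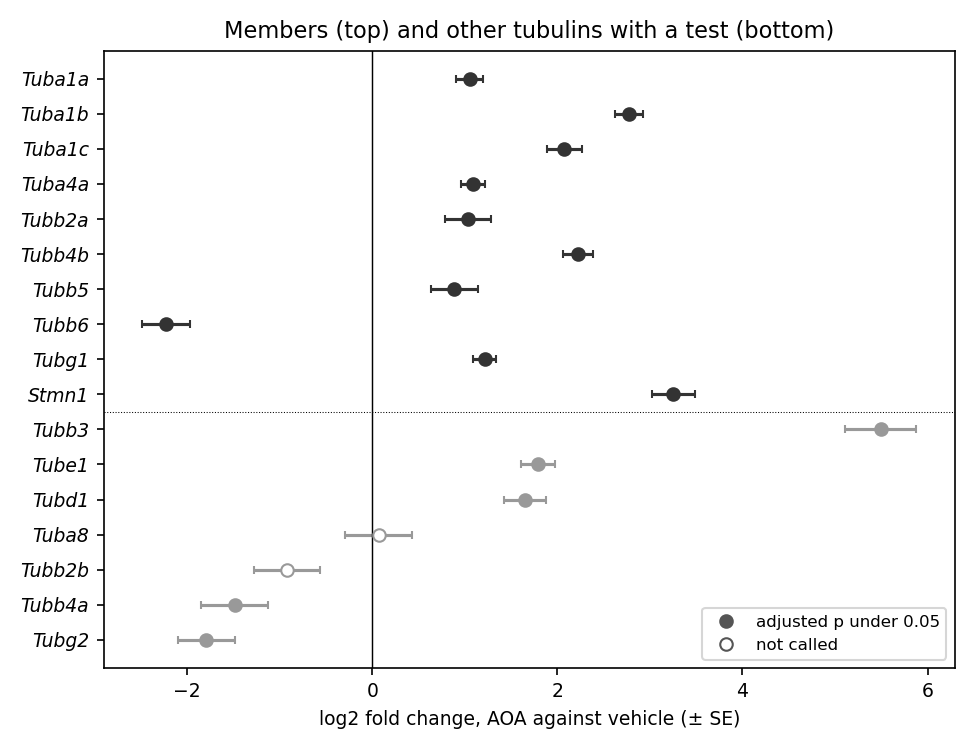
log2 fold change of AOA against vehicle with its standard error for the 10 genes (black, top) and the 7 other tubulin genes with a test (grey, bottom), filled where the adjusted p is under 0.05. The 10 genes run from -2.23 for Tubb6 to 3.25 for Stmn1, and Tubb3 stands at 5.49.

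The order of the genes was read per length, and it is uncertain for genes with many shared windows. In CPM per kilobase (mean ± SD, n = 3), the vehicle libraries had Tubb5 at 505 ± 153, then Tubb4b at 59.1 ± 6.11, Tuba4a at 47.0 ± 5.34, Tuba1a at 30.3 ± 2.62, Stmn1 at 25.3 ± 5.88, Tubb6 at 23.0 ± 3.30, Tuba1b at 22.7 ± 3.10, Tubg1 at 17.7 ± 0.373, Tuba1c at 17.0 ± 3.93 and Tubb2a at 3.77 ± 1.20. Means that differed by less than the larger SD were those of Tuba1a and Stmn1, of Stmn1, Tubb6 and Tuba1b, and of Tubg1 and Tuba1c. With AOA the same scale gave Tubb5 at 935 ± 181, Tubb4b at 276 ± 35.4, Stmn1 at 242 ± 53.7, Tuba1b at 155 ± 9.39, Tuba4a at 99.9 ± 3.27, Tuba1c at 71.9 ± 8.51, Tuba1a at 62.7 ± 9.15, Tubg1 at 41.0 ± 2.74, Tubb2a at 7.75 ± 0.631 and Tubb6 at 4.92 ± 1.89. By the same rule Stmn1 and Tubb4b were within their spread, and Tuba1a and Tuba1c lay just outside it. Tubb6 had moved from the middle of the order to its end.

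Summed over isotypes, both families were higher with AOA. The 4 alpha genes together had 202, 250 and 228 CPM with vehicle and 748, 685 and 720 CPM with AOA, a 3.17-fold difference of means. The 4 beta genes together had 1633, 1017 and 1780 CPM with vehicle and 2569, 2785 and 3457 CPM with AOA, a 1.99-fold difference. The groups did not overlap in either sum. All 10 genes together took 0.137% to 0.201% of all counts with vehicle and 0.366% to 0.455% with AOA.

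The balance between isotypes was measured as 6 log2 ratios of counts per length within a library, which do not depend on library size. An exact two-sided permutation test of 3 against 3 libraries cannot give a p below 0.1, and p-values were adjusted over the 6 ratios. Summed alpha over summed beta was -2.64, -1.71 and -2.57 with vehicle and -1.43, -1.64 and -1.86 with AOA. Here the groups overlapped, since the vehicle value of mouse 2 lay inside the AOA range, and the difference of 0.66 had an exact p of 0.2 (adjusted 0.24). Within mice 1, 2 and 3 the ratio was higher with AOA by 1.21, 0.07 and 0.71, and 3 pairs cannot give an exact p below 0.25. When counts were instead divided by the windows not shared with another gene, an alternative chosen after the data were seen, the groups were separate and the difference was 0.81 (exact p = 0.1).

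Within alpha tubulin the balance moved toward Tuba1b. The log2 ratio of Tuba1a to Tuba1b was 0.52, 0.38 and 0.37 with vehicle and -1.11, -1.29 and -1.56 with AOA, a difference of -1.74 (exact permutation p = 0.1, adjusted 0.15). The log2 ratio of Tuba4a to Tuba1b was 1.20, 1.18 and 0.78 with vehicle and -0.70, -0.53 and -0.67 with AOA, a difference of -1.69 (exact permutation p = 0.1, adjusted 0.15). Every AOA value of both ratios was below every vehicle value. The sign of these ratios depends on the scaling, since by windows that are not shared Tuba1b and Tuba1a were within their spread of each other with vehicle and both above Tuba4a, and with AOA Tuba1a, Tuba1b and Tuba4a held 17.1%, 58.9% and 8.93% of alpha tubulin. The ratio of Tubb2a to Tubb5 differed by 0.16 (exact permutation p = 0.5), less than the SD of 0.23 among the vehicle libraries.

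The ratio of Tubb6 to Tubb5, the beta genes with no shared windows, was -4.40, -4.00 and -4.84 on the log2 scale with vehicle and -7.79, -6.99 and -8.08 with AOA. Every AOA value was below every vehicle value, by 3.20 in the mean (exact permutation p = 0.1, adjusted 0.15), which is 9.21-fold. The log2 ratio of Stmn1 to the summed alpha and beta tubulins was -5.35, -4.25 and -4.84 with vehicle and -2.32, -2.94 and -3.01 with AOA. No AOA value overlapped the vehicle values, and the mean was 2.06 higher with AOA (exact permutation p = 0.1, adjusted 0.15).

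As shares of alpha tubulin per length (mean ± SD, n = 3), Tuba4a was 40.2% ± 3.19 with vehicle and 25.7% ± 1.81 with AOA, and Tuba1a 26.0% ± 1.88 and 16.1% ± 1.84. Tuba1b went from 19.4% ± 1.65 to 39.9% ± 1.78 and Tuba1c from 14.4% ± 1.91 to 18.4% ± 1.36. Scaled by windows that are not shared, Tuba1c was 14.4% ± 2.00 with vehicle and 15.1% ± 1.05 with AOA, so that its gain depended on the scaling, while that of Tuba1b was present on both scales. Of beta tubulin, Tubb5 was 84.7% ± 4.82 with vehicle and 76.1% ± 4.75 with AOA, Tubb4b 10.7% ± 4.03 and 22.9% ± 4.79, and Tubb6 4.04% ± 0.948 and 0.409% ± 0.177. Scaled by windows that are not shared, Tubb5 was 76.0% with vehicle and 61.9% with AOA, and Tubb4b 18.7% and 36.6%. On the length scale, the AOA library of mouse 3, at 79.7%, and the vehicle library of mouse 2, at 79.1%, overlapped for Tubb5. Tubb2a stayed near 0.637% in both groups.

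**Figure D3:**
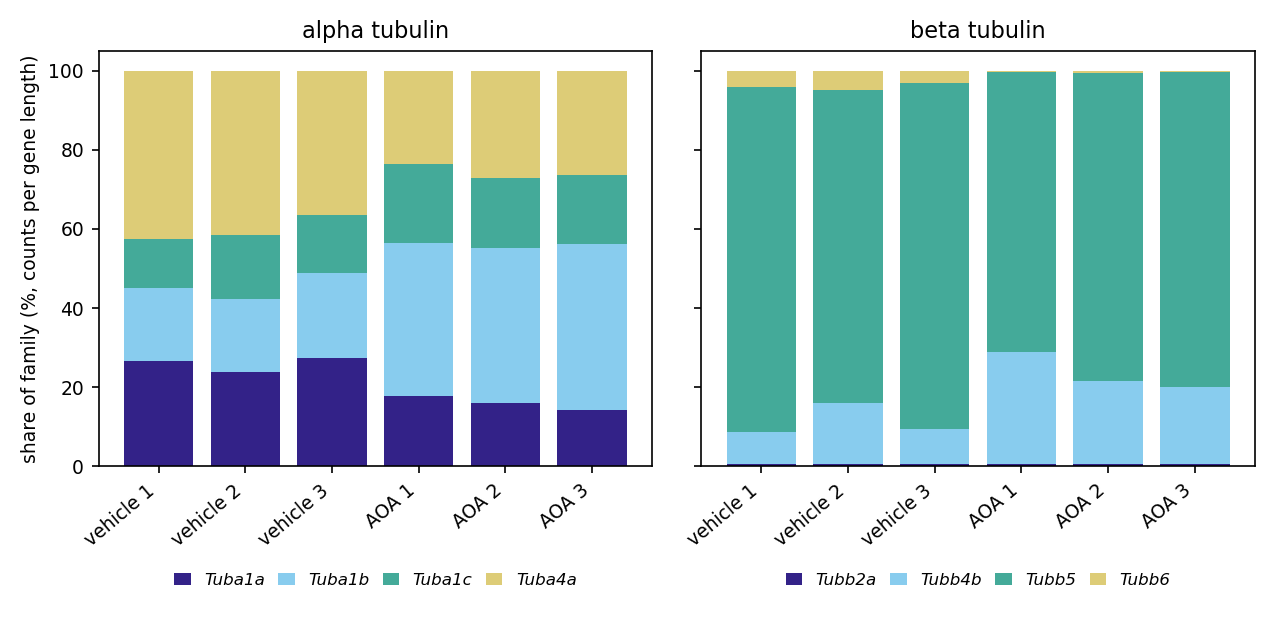
Share of each isotype in its family, in percent of counts divided by gene length, with 1 bar per library for alpha tubulin (left) and beta tubulin (right). Tuba1b takes 18.3% to 21.3% of alpha tubulin with vehicle and 38.5% to 41.9% with AOA, and the top band of Tubb6 shrinks from 4.04% to 0.409% in the means.

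Among the other tubulin genes, 8 of the 14 listed tubulin and stathmin genes had a row and 7 were tested, of which 3 rose, 2 fell and 2 did not pass. Tubb3, the class III beta tubulin used as a marker of neurons, had 0.159, 0.317 and 0.109 CPM with vehicle, from 2 to 5 counts per library, and 7.63, 9.36 and 10.04 CPM with AOA. All 3 AOA libraries, with 166 to 199 counts, were far above the vehicle libraries, and the log2 fold change was 5.49 ± 0.38 (SE, edgeR adjusted p = 1.51e-05). Tube1 and Tubd1, the epsilon and delta tubulins of centrioles, rose with log2 fold changes of 1.79 and 1.65 (edgeR adjusted p = 9.93e-05 and 4.01e-04). Tubb4a, a beta tubulin of brain, fell by 1.49 on the log2 scale, from 23.6, 7.42 and 17.5 CPM with vehicle to 5.47, 6.40 and 5.40 CPM (edgeR adjusted p = 0.00764). Tubg2, the other gamma tubulin gene, had 3.65, 2.54 and 3.64 CPM with vehicle and 0.965, 0.846 and 1.01 CPM with AOA, opposite in direction to Tubg1 (log2 fold change -1.79, edgeR adjusted p = 0.0013). Tubb2b had a log2 fold change of -0.92 and Tuba8 of 0.07, and neither passed the test (adjusted p = 0.0543 and 0.883). Tuba3a, with 3 to 20 counts per library, was not tested, and Tuba3b, Tubal3, Tubb1, Stmn2, Stmn3 and Stmn4 had no row.

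Promoter sequence was described for 7 of the 10 genes, which leaves out Stmn1, Tubb6 and Tubg1. It was read as the 250 bases before the start that the RefSeq promoter table gives in build GRCm38.p6. For Tuba4a that window (chr1:75219295-75219544, minus strand) lies inside the RefSeq gene span, so it is upstream of an inner start and not of the outermost one. The 2 below are shown because Tubb4b and Tubb5 had the largest and smallest rise of the beta genes. Both lie on the minus strand and are written 5′ to 3′ along the gene, with motifs found on either strand in capitals. The motifs were the CCAAT box, the cell cycle homology region written as TTTGAA, the TATA box written as TATAAA, and the core of the hypoxia response element, for which ACGTG and also GCGTG were searched.
Tubb4b, chr2:25224703-25224952: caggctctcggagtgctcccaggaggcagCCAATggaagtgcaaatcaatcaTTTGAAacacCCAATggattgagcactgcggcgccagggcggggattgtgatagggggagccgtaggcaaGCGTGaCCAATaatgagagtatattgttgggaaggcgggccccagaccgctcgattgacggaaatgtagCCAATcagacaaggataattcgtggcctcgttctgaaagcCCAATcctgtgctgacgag
Tubb5, chr17:35838302-35838551: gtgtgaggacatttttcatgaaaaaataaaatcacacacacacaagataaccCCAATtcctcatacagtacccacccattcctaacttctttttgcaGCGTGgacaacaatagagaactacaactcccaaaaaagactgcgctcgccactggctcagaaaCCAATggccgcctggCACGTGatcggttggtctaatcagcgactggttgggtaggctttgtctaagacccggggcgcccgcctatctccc
CCAAT occurred 5 times in Tubb4b and 2 times in Tubb5. Of the 3 hypoxia response cores in Tubb5, those at -75 and -74 from the start overlap, as the same letters read on the 2 strands. In all, 4 of the 7 promoters held CCAAT, against 33.8% of 32851 promoters of the same length. TTTGAA was in that of Tubb4b alone (16% of all promoters) and TATAAA in that of Tubb2a alone (12.4%). A core of the hypoxia response element was in 4 of 7, the window of Tuba4a included, against 38.6% of all. The E2F letters TTTCCCGC, TTTGGCGC, TTTGCCGC and TTTCGCGC were in none of the 7 and in 1.86% of all promoters. These matches describe letters in the windows only.

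Genes that act on tubulin were read from the same fit. Of 13 genes for tubulin folding, 6 rose, 1 fell and 6 did not pass, with a median log2 fold change of 0.30. Prefoldin, which hands new tubulin and actin chains to the folding machine, accounted for 5 of the 6 that rose, among them Pfdn4 (1.04, adjusted p = 0.00352) and Vbp1 (0.92, adjusted p = 0.00471). Mouse 1 had the largest rise in Pfdn1, Pfdn4 and Vbp1. The call on Pfdn1 was lost without the vehicle library of mouse 1 or 3 or the AOA library of mouse 1. That on Pfdn2 was lost with the trend on gene length removed. The remaining subunit gene, Pfdn5, had -0.50 (adjusted p = 0.1) and was called lower with mouse as a block (adjusted p = 0.0244), and the summed prefoldin level, 390 to 441 CPM with vehicle and 381 to 605 CPM with AOA, overlapped between groups. Tbca, which binds beta tubulin, rose with a log2 fold change of 0.90, and Tbcel, which destabilises tubulin, fell by 0.74 on the log2 scale. The 3 genes of tubulin mRNA decay split: Cnot11, an adaptor of the deadenylase, rose with a log2 fold change of 0.50 (adjusted p = 0.0209), and Ttc5, the factor that recognises the new tubulin chain, and Scaper, which links it to the deadenylase, fell by 0.48 and 0.59 (adjusted p = 0.0217 and 0.0449). Each of these 3 calls was lost in at least 4 of the alternative settings.

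Of 19 genes that place gamma tubulin and start microtubules, 9 rose, 2 fell and 8 did not pass. Augmin, the complex that branches microtubules inside the spindle, had 6 of 8 subunits higher, with Haus5 at 1.74 (adjusted p = 3.06e-05), Haus7 at 1.61 and Haus1 at 1.19 on the log2 fold scale, while Haus3 fell by 0.48 (adjusted p = 0.0448) with libraries that overlapped, a call lost in 5 of the alternative settings. Of the ring complex and its tethers 3 of 11 rose, near the 26.2% of all tested genes, and Akap9, which anchors the ring complex at the Golgi and centrosome, fell by 1.00 on the log2 scale. Beside the log2 fold change of 1.21 of Tubg1, the highest of the 11 ring complex and tether genes was 1.04.

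Of 14 enzymes that modify tubulin 4 rose and 4 fell, near the 26.2% and 26.8% of all tested genes. Their median log2 fold change was -0.11. Vash1, which removes the tyrosine at the end of alpha tubulin, fell by 2.21 on the log2 scale (adjusted p = 0.00149). Its vehicle library of mouse 2, at 56.9 CPM, stood above the other vehicle libraries, at 21.3 CPM each, and leaving out 1 library brought the value as near to 0 as -1.53. Svbp, its partner, rose with a log2 fold change of 0.62 (adjusted p = 0.0154). Of the deacetylases, Hdac6 rose with a log2 fold change of 0.75 and Sirt2 fell by 1.19 on the log2 scale. Agtpbp1, which trims glutamate chains, rose with a log2 fold change of 0.88 (adjusted p = 0.0155), a call lost without the vehicle library of mouse 1 or 3 or the AOA library of mouse 3, and Ttll3, a glycylase, fell by 1.42 on the log2 scale.

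Of 28 microtubule-associated protein genes 12 rose and 5 fell, with a median log2 fold change of 0.25. Spindle proteins accounted for 9 of the 12, of 10 tested, among them Nusap1 (2.89), which bundles spindle microtubules, and Tacc3 (2.61), which stabilises them. The severing enzyme gene Fignl1 had the largest value, 3.43. Of the 13 interphase and plus-end proteins 2 rose and 4 fell, and Clip2 and Mapre3, which bind growing ends, fell by 2.16 and 1.55 on the log2 scale. Katnal1, another severing enzyme gene, fell by 0.71 (adjusted p = 0.0239), a call lost in 4 of the settings that left out 1 library.

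**Figure D4:**
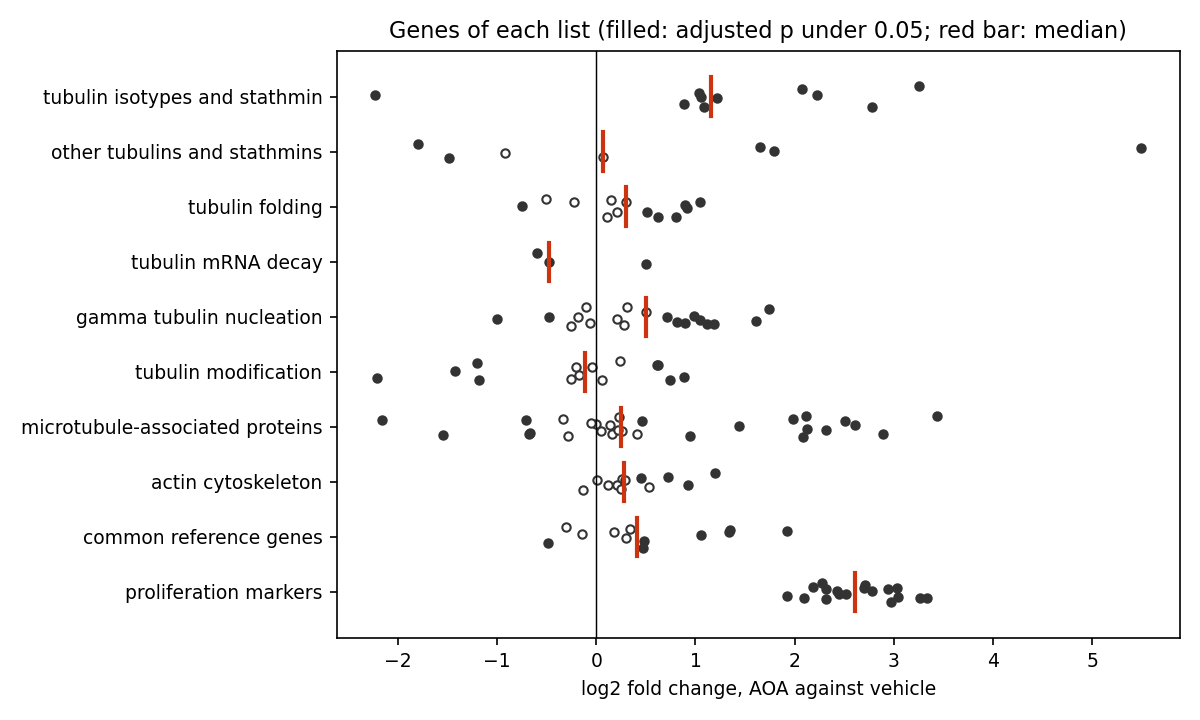
log2 fold change of AOA against vehicle for every tested gene of each list, 1 point per gene, filled where the adjusted p is under 0.05, with a red bar at the list's median. The 10 tubulin and stathmin genes have a median of 1.15, the reference genes 0.41 and the proliferation markers 2.61.

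Actin and common reference genes served as a comparison for the size of these changes. Actb, the beta actin often used beside tubulin as a loading control, rose with a log2 fold change of 0.72 (adjusted p = 0.0138), a call lost without the vehicle library of mouse 1 or 3 or the AOA library of mouse 3, while Actg1, the gamma actin, had 0.01 (adjusted p = 0.96). Of 12 actin cytoskeleton genes 4 rose and none fell, beside 26.2% higher and 26.8% lower over all tested genes. Cfl1 (1.20) and Pfn1 (0.93), which sever filaments and bind monomers, were among those that rose. Vim, an intermediate filament gene on the same list, had 0.46 and lost its call in the fit with mouse as a block (adjusted p = 0.0536). Its call was also lost without the vehicle library of mouse 1 or 3 or the AOA library of mouse 2 or 3. The rest of that list had values from -0.13 for Arpc3 to 0.53 for Tmsb10. Tmsb10 did not pass the test (adjusted p = 0.0574) but was called higher with mouse as a block (adjusted p = 0.0475).

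Of the 12 reference genes 6 rose and 1 fell. Ppia had a log2 fold change of 1.92, Hprt 1.35, Gusb 1.05, Ywhaz 0.48 and Tbp 0.47, and the calls on Ywhaz and Tbp were lost when some libraries were left out. Gapdh (0.30), Sdha (0.34), B2m (0.18), Rplp0 (-0.31) and Pgk1 (-0.15) did not pass the test. The 5 members Stmn1, Tuba1b, Tubb4b, Tuba1c and Tubb6 had larger absolute log2 fold changes than any of these 12 genes.

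Markers of dividing cells were higher with AOA, as were 9 of the 10 genes. All 18 rose, with log2 fold changes from 1.92 to 3.34, and their summed level was 1176 to 1485 CPM with vehicle and 7377 to 8197 CPM with AOA. Their part in the tubulin changes was not tested. The authors of the study measured fewer cells and less cell division with AOA, at an earlier time in culture than this RNA. These mRNA levels are therefore not a measure of division. In bulk RNA, fewer cells of a type and less RNA per cell cannot be told apart. Tuba1b, Tubb4b, Tuba1c and Stmn1 had log2 fold changes inside the range of these markers, and Tuba1a, Tuba4a, Tubb2a, Tubb5 and Tubg1 lay below it. Tubb6, at -2.23, went the other way, as did Tubb4a and Tubg2.

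The genes most like a member over the 6 libraries were found by the root mean square difference of centred log2 CPM, among genes with a mean of at least 10 CPM. For Tuba1b these were Cdca5 (0.0819), Dtl (0.0974) and Brip1 (0.1001). For Stmn1 they were Shcbp1 (0.0697), Esco2 (0.101) and Hmgn2 (0.120). Tubb5 was nearest to 5031439G07Rik (0.0752), Epb41l2 (0.116) and Ets2 (0.141), and Tubb6 to Tbkbp1 (0.0795), Tigit (0.143) and Pak6 (0.164). Most of each likeness is the difference between the groups that the genes share.

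The label of CD8+ T cells was checked against markers. Of 7 CD8 T cell markers 6 had a row, with a summed level of 3811 to 4748 CPM with vehicle and 4876 to 5726 CPM with AOA, and Cd8a and Cd8b1 rose with log2 fold changes of 1.03 and 0.64, the latter call being lost without the AOA library of mouse 3. The other 4 did not pass the test, with values of -0.31 for Cd3g, whose libraries did not overlap, -0.27 for Cd3e, -0.13 for Cd3d and -0.06 for Lck. Markers of CD4 T cells summed to 82.2 to 137 CPM with vehicle and 21.7 to 31.3 CPM with AOA, and Cd4 fell by 3.08 and Cd40lg by 2.58 on the log2 scale. Foxp3, on the same list, had 0.36 (adjusted p = 0.127) and made up most of the AOA sum, with a mean of 17.1 CPM. Those of NK cells summed to 20.1 to 114 and 3.53 to 11.6 CPM, with 2 of 2 in the table. The high end with vehicle was the library of mouse 2, where Klrb1c had 111 CPM, against 41.7 and 20.1 CPM in mice 1 and 3. That library was also the lowest for Tubb5. Myeloid markers summed to 40.5 to 53.2 and 0.873 to 3.28 CPM, nearly all from Itgam, which activated CD8+ T cells also make, with 4 of 6 markers lacking a row. The 4 B cell markers summed to 12.6 to 16.6 and 22.6 to 30.7 CPM, mostly Cd79b. Of 6 platelet markers only Itga2b had a row (2.03 to 4.84 and 0.151 to 0.581 CPM), and the 3 erythroid markers had none. The part of these cells in the tubulin values was not tested.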

How the data were processed

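The authors made stranded mRNA libraries, sequenced them in read pairs of 75 bases and aligned them by STAR with its defaults. The deposited values are raw counts per gene, made from reads that mapped to 1 place, beside the Entrez number, symbol and length. The submitters' processing notes also name bcl2fastq, featureCounts, DESeq2 and the build mm10. The sources used here give neither the annotation release nor the counting options.

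The 10 genes and all lists were chosen with earlier results of these data known. In R 4.3.3, genes were kept by filterByExpr (minimum count 10), scaled by TMM and compared by edgeR 4.0.16 (robust quasi-likelihood test, Benjamini-Hochberg adjustment over 11759 genes, threshold 0.05). Each adjusted p in the text is from this fit unless another is named. Ratios used an exact permutation test. Named genes were the members, other tubulins, reference genes, actins, up to 3 called genes per list and direction whose group with more reached a mean of 10 CPM, and the 3 nearest genes of 4 members. Some genes and sequences chosen by these rules are not reported here. Arpc3, Tmsb10, Vim, Pfdn5 and the markers were named after their values were seen. Shared windows and coding ends came from GENCODE vM21, promoters and gene positions from RefSeq (GRCm38.p6).

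Alternatives were DESeq2 1.42.0, limma-voom (limma 3.58.1), median-of-ratios factors, library totals alone, a filter of 10 CPM in 3 libraries, a fit without a filter, a replicate block by mouse, omission of each library, and raw counts for ratios and shares. Pairing comes from the mouse donor numbers in the labels. Deviations from group means correlated across genes with r of 0.0868, 0.189 and 0.194 within mice 1, 2 and 3, where genes are not independent replicates.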

Additional observations from a re-analysis of the deposited data

How the results depend on the processing

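All 10 calls kept their direction in all 14 alternative settings. The call on Tubb5 was lost without the AOA library of mouse 3 (log2 fold change 0.73, adjusted p = 0.0666), and the other 9 passed in every setting. With mouse as a replicate block 9 genes were higher and 1 lower, as without it, and Tubb5 had an adjusted p of 0.00475. Over the whole table the block gave 3126 genes higher and 3166 lower, and leaving out 1 library gave 2519 to 3499 higher and 2433 to 3297 lower. The block changed no call on the 10 genes.

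The 6 ratios kept their direction in every setting, but not every setting could have changed it. In a ratio of single genes the gene length cancels between groups, so raw counts give the same difference. The mean of the differences within mice, a replicate block, equals the difference of group means by arithmetic. It cannot give an exact p below 0.25. The share of Tubb2a in beta tubulin differed between groups by -0.000612 percentage points, by 0.0160 on raw counts, by -0.109 per window not shared with another gene, and by -0.0485 to 0.0399 when 1 library was left out, all under or near the SD of 0.0894 among the vehicle libraries.

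Counts in the context lists that moved by more than 1.5 times were small. Other tubulins called lower numbered 2, and 0 to 4 in the alternatives. The 0 came from the filter of 10 CPM in 3 libraries, which left Tubb4a and Tubg2 untested. Neither lost its call where it was tested. That filter also left the platelet marker Itga2b untested. The mRNA decay genes called higher numbered 1, and 0 to 1, and those called lower 2, and 0 to 2. For folding genes called lower the count of 1 became 2 under the replicate block, for nucleation genes called lower 2 became 1, for modifying enzymes called higher 4 became 2, for microtubule-associated proteins called lower 5 became 3, and for actin genes called higher 4 became 2, each in at least 1 setting. Reference genes called lower numbered 1, and 0 to 2. CD8 T cell markers called higher went from 2 to 1 and lower from 0 to 1, CD4 T cell markers higher from 0 to 1 and lower from 2 to 1, platelet markers lower from 1 to 0, and B cell markers lower from 0 to 1, each in 1 or 2 settings.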
